A study of Mus musculus with 18 samples.

Results

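The inhibitor of DNA binding family comprises 4 genes, Id1, Id2, Id3 and Id4, out of 18193 genes that the array's annotation tied to a probe set of their own. Its members were the 8 probe sets annotated to 1 of these genes alone, namely 1 for Id1, 3 for Id2, 1 for Id3 and 3 for Id4. All 8 were among the 34764 probe sets that passed the filter on low signal, which asked for a signal above the array's own 40th percentile on at least 3 arrays. The family was chosen by its measured differences between genotypes, because Id4 had a lower signal in mutants while Id1, Id2 and Id3 did not. The differences between mutant and wild type are therefore given for the members as a description, with standard errors and without a test.

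Id proteins are small helix-loop-helix proteins that lack the basic region with which related transcription factors hold DNA. They pair with E proteins, the broadly expressed partners of tissue-restricted basic helix-loop-helix (bHLH) factors, and the pairs they form cannot bind DNA. Bone morphogenetic protein (BMP) signalling through SMAD proteins is a well-known inducer of Id1, Id2 and Id3. In the testis Id4 is known as a marker of the spermatogonial stem cell, and Id proteins have also been described in Sertoli cells.

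Total RNA of whole testes was profiled on Affymetrix whole-genome mouse expression arrays from animals homozygous for repro9 (repro9/repro9) and from wild-type animals, at 14 and 17 days postpartum (dpp). The repro9 allele lies in Mybl1, which encodes the transcription factor A-MYB of meiotic male germ cells, and it is carried by every cell of the mutant animals. There were 5 mutant and 3 wild-type arrays at 14 dpp, and 5 of each genotype at 17 dpp. According to the series' design text, the ages were picked to enrich first for the early part and then for the late part of pachytene and for diplotene.

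The labels number the arrays of a group as replicates without tying each to an animal, so p-values measure the spread between these arrays, which may be technical in part. The values are MAS5 signals, which are linear probe set intensities, and the number of arrays limits their precision. β-Actin is probed near both ends of its transcript as a control for RNA integrity and amplification, and the 3′ signal over the 5′ signal divided the arrays into 3 sets. Set 1 held 7 arrays with a ratio of 2.31 to 2.92, namely 2 mutant and 2 wild-type arrays of 14 dpp and 2 mutant and 1 wild-type array of 17 dpp. Set 2 held 4 arrays with a ratio of 1.45 to 1.49, all of 14 dpp (3 mutant, 1 wild type). Set 3 held 7 arrays with a ratio of 103 to 125, all of 17 dpp (3 mutant, 4 wild type), and its arrays had a 2% trimmed mean signal of 395 against 500.0 on the other 11. Both genotypes occur in every set, whereas ages can be compared within set 1 alone. Testis markers were present in every group. The summed signal of 14 Sertoli cell markers lay between 44845 and 93901 over the groups and that of 15 markers of leptotene to zygotene spermatocytes between 35935 and 119740. The summed signal of 12 pachytene spermatocyte markers separated the genotypes, at 3517 to 4801 in mutants against 15415 to 22908 in wild type at 14 dpp, and 3995 to 5916 against 82616 to 164380 at 17 dpp. In whole-testis RNA, fewer cells of a type and less RNA per cell cannot be told apart.

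In the GRCm38.p6 annotation of RefSeq, Id1 spans chr2:152736251-152737410, Id2 chr12:25093799-25096092, Id3 chr4:136143822-136145392 and Id4 chr13:48261116-48266028. Because the mutated gene encodes a MYB factor, the 250 bases before the RefSeq start of each gene are shown for the 3 members that matched the promoter table (Id1 did not), in the 5′ to 3′ direction of the gene. Capitals mark each match to the MYB core AACNG, searched on both strands.

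Id2 (chr12:25096093-25096342, minus strand): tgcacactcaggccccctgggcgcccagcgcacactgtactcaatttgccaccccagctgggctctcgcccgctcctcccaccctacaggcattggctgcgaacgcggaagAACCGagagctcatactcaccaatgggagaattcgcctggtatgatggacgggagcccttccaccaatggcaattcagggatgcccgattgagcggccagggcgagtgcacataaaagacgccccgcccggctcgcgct
Id3 (chr4:136143572-136143821, plus strand): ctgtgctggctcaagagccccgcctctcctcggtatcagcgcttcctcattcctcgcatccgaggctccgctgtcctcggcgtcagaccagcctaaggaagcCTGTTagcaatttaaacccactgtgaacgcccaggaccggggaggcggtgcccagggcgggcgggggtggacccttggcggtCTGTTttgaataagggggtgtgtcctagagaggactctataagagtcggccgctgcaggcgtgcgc
Id4 (chr13:48260866-48261115, plus strand): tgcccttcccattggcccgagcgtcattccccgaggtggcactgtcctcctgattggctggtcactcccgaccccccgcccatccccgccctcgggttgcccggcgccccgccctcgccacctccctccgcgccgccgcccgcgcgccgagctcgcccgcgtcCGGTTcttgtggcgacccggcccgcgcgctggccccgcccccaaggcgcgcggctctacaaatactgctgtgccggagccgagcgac

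The Id4 window held 1 match to the MYB core, 87 bases before the start and on the strand opposite to the gene. The Id2 window held 1 as well, 139 bases before the start on the gene's own strand, and the Id3 window held 2, at 148 and 66 bases before the start on the opposite strand. Of 32851 RefSeq promoter windows of this length, 74.2% hold at least 1 such match, so its presence did not set Id4 apart from Id2, Id3 or most other genes. The E-box CANNTG, to which bHLH dimers bind, had 1 match in the Id2 window and 0 in those of Id3 and Id4, against 66.2% of all windows with a match. The GC-rich letters GGCGCC, a site type of the SMADs of the BMP pathway, occurred 1 time in the Id2 window and 1 time in the Id4 window, against 9.59% of all windows. No 2 of these matches overlapped. The Id4 window was the richest of the 3 in G and C, at 75.6% against 62.8% for Id2 and 62.8% for Id3. These are matches of letters, not measured binding sites.

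Id4 had its highest signal in wild-type testes at 17 dpp and a several-fold lower signal in mutants of that age. Its brightest probe set, 1423259_at, gave signals of 6001.5, 11819, 10400, 9340.1 and 15269 on the 5 wild-type arrays of 17 dpp. On the 5 mutant arrays of that age it gave 1627, 1704, 1744, 939 and 1846. All 5 mutant arrays lay below all 5 wild-type arrays, and the lowest wild-type array was the one of array set 1. At 14 dpp this probe set gave 2044, 1855 and 1756 in wild type. The mutants of 14 dpp gave 717, 829, 1074, 1051 and 943. Again the genotypes did not overlap, and within the mutants the 2 arrays of set 1 were the lowest.

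The geometric mean signal of 1423259_at at 17 dpp was 10102 in wild type and 1529.9 in mutants, a log2 difference of −2.72 ± 0.24 (standard error, SE), or 6.60-fold. At 14 dpp it was 1881 in wild type and 912 in mutants, a log2 difference of −1.04 ± 0.28, or 2.06-fold. The lower signal in mutants was present in each array set that holds both genotypes. Within set 1 the log2 difference was −1.34 at 14 dpp and −1.85 at 17 dpp, within set 2 it was −0.78 at 14 dpp, and within set 3 it was −2.99 at 17 dpp. The difference at 17 dpp exceeded that at 14 dpp by −1.68 ± 0.37 over all arrays. Within set 1 alone the excess was −0.51, with a single wild-type array of 17 dpp. The 4 groups thus ranked wild type 17 dpp, wild type 14 dpp, mutant 17 dpp and mutant 14 dpp by geometric mean, and wild type at 14 dpp overlapped the mutants at 17 dpp.

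The other Id4 probe sets had the same sign at both ages. Probe set 1450928_at gave 704, 802 and 526 in wild type at 14 dpp against 476, 483, 421, 362 and 316 in mutants, a log2 difference of −0.72 ± 0.32. At 17 dpp it gave 1639, 3064, 3958, 3083 and 4600.5 in wild type against 697, 906, 1208, 576 and 1053 in mutants, a log2 difference of −1.85 ± 0.28. The genotypes did not overlap at either age for this probe set, and the difference at 17 dpp was −1.04 within set 1 and −2.01 within set 3.

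The third probe set of Id4, 1423260_at, was the dimmest of the gene. At 14 dpp it gave 329, 600.1 and 622 in wild type and 282, 376, 348, 329 and 347 in mutants, so the genotypes overlapped through the first wild-type array. At 17 dpp it gave 1001, 656, 771, 1091 and 876 in wild type and 176, 374, 382, 509 and 165 in mutants, without overlap. The log2 differences were −0.57 ± 0.36 at 14 dpp (−0.45 within set 1, −0.87 within set 2) and −1.57 ± 0.31 at 17 dpp (−1.96 within set 1, −1.39 within set 3). The sign of the Id4 differences was negative for all 3 probe sets under each of the 17 other settings run at 14 dpp and the 19 run at 17 dpp.

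**Figure D1:**
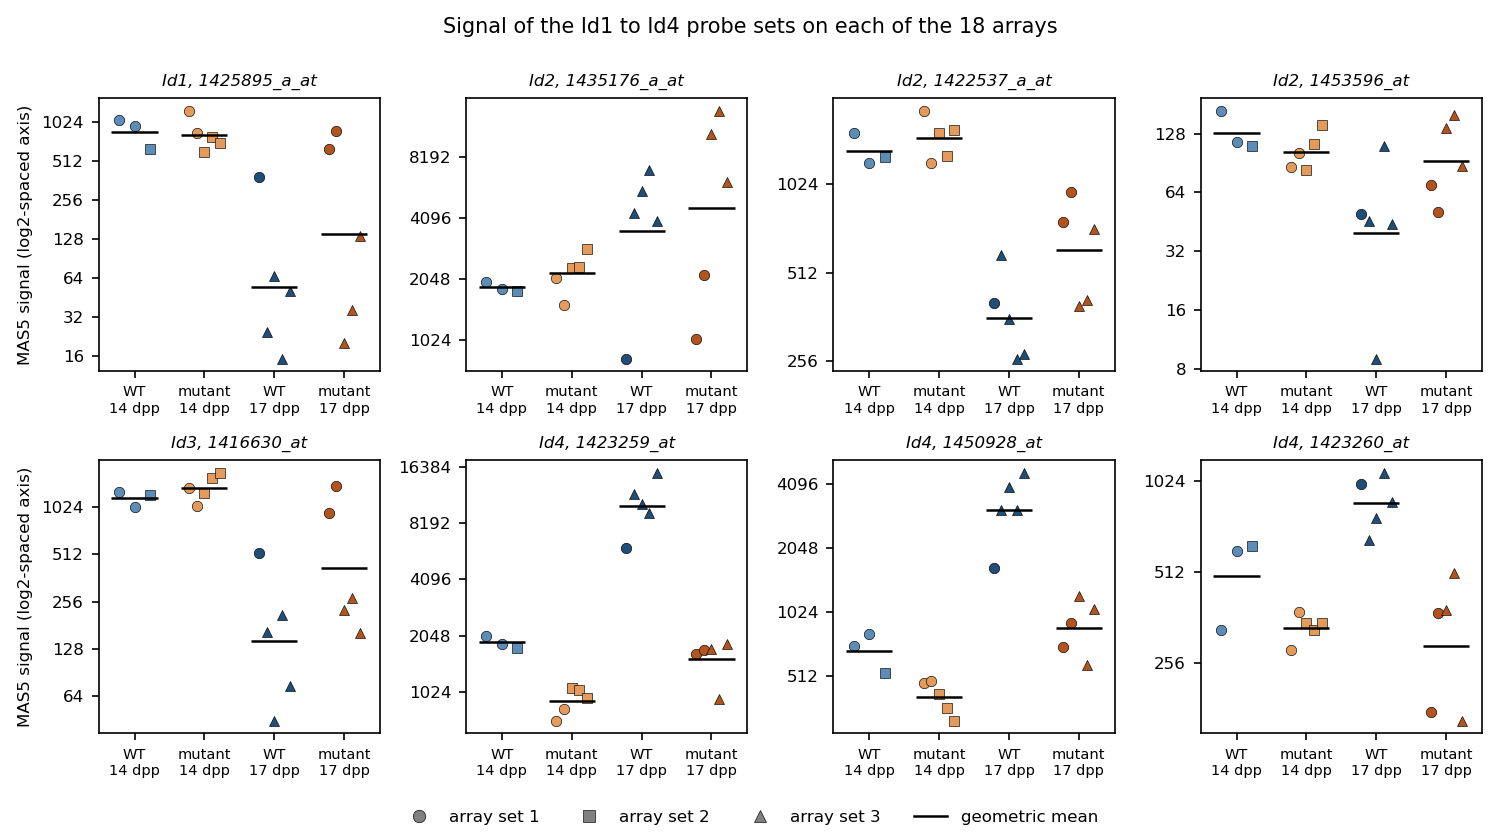
MAS5 signal (log2-spaced axis) of each of the 8 Id probe sets on the 18 arrays, by genotype and age. Points are arrays, their shape gives the array set and bars are geometric means; Id4 1423259_at lies between 939 and 1846 in mutants at 17 dpp and between 6001.5 and 15269 in wild type, while Id1 and Id3 separate by array set at 17 dpp.

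Id1, Id2 and Id3 did not share the lower mutant signal of Id4 at 17 dpp. Each of their 5 probe sets had a positive log2 difference there, from 0.37 to 1.56, while the median over all 34764 probe sets was itself 0.25. The sign held under each of the 19 other settings for 4 of them, and turned for Id2 1435176_a_at without mutant 17 dpp replicate 4 (−0.03) or wild-type 17 dpp replicate 1 (−0.15). At 14 dpp their differences lay between −0.32 and 0.22, each smaller than its SE. At 17 dpp their signals moved with the array set as well as with genotype, so the values of each array are needed beside the means.

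Id1, a classical BMP-induced member, gave 1068, 962 and 636 at 14 dpp in wild type and 1262, 850.1, 608, 790.3 and 707 in mutants, with the genotypes interleaved. At 17 dpp it gave 388, 24.2, 66.0, 15.2 and 50.2 in wild type and 635, 882, 20.0, 36.2 and 136 in mutants. The first wild-type array and the first 2 mutant arrays belong to set 1 and were the highest of their groups, and the set 3 arrays were near background. Id1 lay above its array's 40th percentile on 13 of the 18 arrays. The log2 difference was −0.09 ± 1.07 at 14 dpp and 1.37 ± 0.93 at 17 dpp. Under the array set block it was 0.08 ± 0.52 at 14 dpp, of the opposite sign, and 0.61 ± 0.45 at 17 dpp. Within sets at 17 dpp it was 0.95 in set 1 and 0.47 in set 3, where the genotypes overlapped.

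Id3, also BMP-induced, gave 1269, 1030.1 and 1220 in wild type at 14 dpp and 1360, 1036, 1263, 1558 and 1691 in mutants. At 17 dpp it gave 519, 164, 44.6, 210.03 and 74.6 in wild type and 944, 1403, 227, 270.1 and 160.4 in mutants. Set 1 arrays were again the highest, and within set 1 both mutant arrays lay above the wild-type array, while in set 3 the genotypes overlapped. The log2 difference at 17 dpp was 1.56 ± 0.61, or 2.94-fold, and 1.08 ± 0.33 under a block for the array set. It was 1.15 within set 1 and 1.05 within set 3. At 14 dpp it was 0.22 ± 0.70.

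Id2 was measured by 3 probe sets, which shared the sign of the difference at 17 dpp but ran in different ways across the array sets. The brightest, 1435176_a_at, gave 826, 4355, 5564, 7049 and 3969 in wild type at 17 dpp and 1036, 2142, 10685, 13925 and 6168 in mutants. Here the set 1 arrays were the lowest and the set 3 arrays the highest, opposite to Id1 and Id3. Its log2 difference was 0.37 ± 0.62 over all arrays, 0.91 ± 0.23 under the array set block, 0.85 within set 1 and 0.93 within set 3. At 14 dpp it gave 1988, 1834 and 1789 in wild type against 2076, 1527, 2308, 2352 and 2870.2 in mutants, a log2 difference of 0.22 ± 0.71.

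Probe set 1422537_a_at of Id2 gave 404, 588, 357, 262 and 271 in wild type at 17 dpp and 766, 967, 396, 413 and 719.8 in mutants, with overlap through the first 2 wild-type arrays. Its log2 difference was 0.77 ± 0.28 at 17 dpp (1.09 within set 1, 0.49 within set 3) and 0.14 ± 0.33 at 14 dpp. The third Id2 probe set, 1453596_at, was dim, with signals of 9.08 to 167 and 13 of 18 arrays above their 40th percentile. Its difference at 17 dpp was 1.22 ± 0.52 over all arrays, with 0.26 within set 1 and 1.72 within set 3, and at 14 dpp it was −0.32 ± 0.60.

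**Figure D2:**
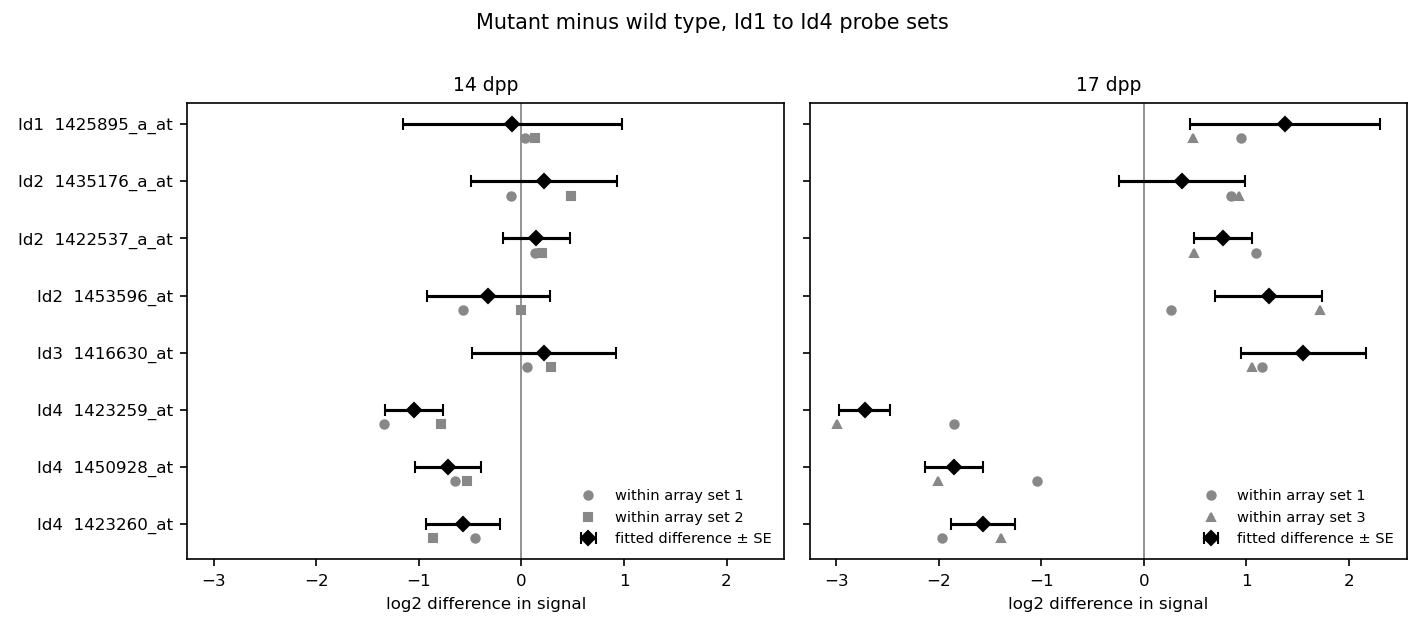
Log2 difference in signal, mutant minus wild type, for the 8 Id probe sets at 14 dpp (left) and 17 dpp (right). Diamonds with bars are the fitted differences ± SE and grey symbols the differences within an array set; the 3 Id4 probe sets lie left of 0 at both ages, from −0.57 to −1.04 at 14 dpp and from −1.57 to −2.72 at 17 dpp.

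Markers of spermatogonia and of somatic cells had mostly positive differences at 17 dpp, as Id1, Id2 and Id3 had, beside a median of 0.25 over all probe sets, and their part in the Id values was not tested. The log2 difference was positive for 17 of 17 tested markers of undifferentiated spermatogonia (median 0.58), 8 of 9 of differentiating spermatogonia (median 0.91), 14 of 14 of Sertoli cells (median 0.70), 7 of 7 of peritubular myoid cells (median 0.45), 5 of 5 of Leydig cells (median 0.87), 7 of 9 of endothelial cells (median 0.44) and 9 of 9 of macrophages (median 1.03). Of these 70 genes 1 passed the test, against 5.33% of all probe sets called and 1.48% called higher. It was the macrophage receptor gene Csf1r (log2 difference 0.90 ± 0.25, limma, adjusted p = 0.0375). Of the 70 genes 22 had an unadjusted p under 0.05 in limma, against 19.4% of all probe sets. Under the array set block 21 of the 70 were called, all higher, against 10.8% of all probe sets called higher and 18.8% called either way. The summed signal of the undifferentiated spermatogonia list lay at 8407 to 15719 in mutants against 5183 to 9695 in wild type at 17 dpp, so Id4, itself known from these cells, had the opposite sign to the markers of that list. That of the Sertoli list ranged from 67555 to 93901 in mutants and 44845 to 70283 in wild type. Pachytene markers, which were lower in mutants for 12 of 12 genes with a median of −5.38 at 17 dpp and −2.88 at 14 dpp, had the sign of Id4. Of those 12, 11 passed the test at 17 dpp and 8 at 14 dpp, against 3.86% and 0.196% of all probe sets called lower. Some lay near background in mutants, such as Pgk2 and Spag6l, with geometric means of 12.6 and 9.98 there at 17 dpp. For such genes passing the filter rested largely on wild-type arrays, which favours a lower call in mutants.

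The choice of the family did not use the comparison of ages, so the members were tested for it, with the array set as a block because the ages lie in different sets. The wild-type arrays in it are the same as those behind the Id4 difference between genotypes, so the comparisons are not independent. Sets 2 and 3 each hold a single age, so under the block the mutant arrays also enter the wild-type age difference. The tested value is thus not free of the genotype contrast by which Id4 was picked. For Id4 1423259_at in wild type it was 2.29, against 1.62 within set 1, the only set with both ages. In wild type 3 of the 8 probe sets passed the test (limma, Benjamini-Hochberg adjusted p at most 0.05), against 7.63% of all probe sets. Id4 rose between 14 and 17 dpp while a probe set of Id2 fell. The Id4 calls rest on the wild-type arrays of 17 dpp whose high signal also entered the choice of the family. They and the count of 3 are therefore a description and no independent support. This holds for the adjusted p-values of Id4 given below as well. In mutants 0 of 8 passed, against 1.37% of all probe sets, and 2 of the 8 had an unadjusted p under 0.05 in limma, against 10.5% of all probe sets.

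In wild type Id4 1423259_at rose by a log2 difference of 2.29 ± 0.32, or 4.89-fold (limma, adjusted p = 4.31e-04), from signals of 1756 to 2044 on 3 arrays to 6001.5 to 15269 on 5. Every array of 17 dpp lay above every array of 14 dpp, and within set 1 the rise was 1.62. Over 15 other settings it stayed between 1.62 and 2.89, and leaving out 1 array gave adjusted p from 3.71e-04 to 0.00258 (limma). That range of p leaves out the fits within set 1, which hold a single wild-type array of 17 dpp. With the spread of all arrays the rise within set 1 was less strongly called. Probe set 1450928_at rose by 1.61 ± 0.32, or 3.06-fold (limma, adjusted p = 0.00484), with 1.13 within set 1, where it did not pass with the spread of all arrays (adjusted p = 0.166). Probe set 1423260_at had a positive difference that did not pass, 0.81 ± 0.44 (limma, adjusted p = 0.288).

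In mutants the Id4 differences with age were smaller and did not pass the test. For 1423259_at the log2 difference was 0.72 ± 0.30 (limma, adjusted p = 0.368), for 1450928_at 0.47 ± 0.29 (adjusted p = 0.668) and for 1423260_at −0.12 ± 0.40 (adjusted p = 0.981). The call on 1423259_at depended on the setting, since it passed after quantile normalization (0.98, adjusted p = 0.0287). Within set 1 the difference was 1.11, which passed with the spread of that set alone (adjusted p = 0.00421) and not with the spread of all arrays (adjusted p = 0.118). The mutant arrays of 17 dpp overlapped none of those of 14 dpp except through the fourth mutant array of 17 dpp, at 939. How far the age difference of Id4 itself differs between genotypes is the same quantity as the change of its genotype difference given above, and carries no test here.

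Id1, Id2 and Id3 had negative age differences in wild type under the block. Id2 1422537_a_at fell by 1.45 ± 0.35, or 2.73-fold (limma, adjusted p = 0.0163), from 1536, 1207 and 1267 at 14 dpp to 262 to 588 at 17 dpp, with no overlap. That call was lost when each array was centred on the common median (−1.06, adjusted p = 0.148), without wild-type 14 dpp replicate 1 (−1.33, adjusted p = 0.0904), without wild-type 17 dpp replicate 1 (−1.14, adjusted p = 0.178), and within set 1 with the spread of all arrays (−1.75, adjusted p = 0.0620). The brightest Id2 probe set, 1435176_a_at, gave −1.12 ± 0.35 (limma, adjusted p = 0.0557), and without the block its sign was opposite, at 0.92. It passed without wild-type 17 dpp replicate 4 (−1.19, adjusted p = 0.0318). The dim 1453596_at gave −2.07 ± 0.77 (adjusted p = 0.115) and passed without that same replicate (−2.28, adjusted p = 0.0495).

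Id1 gave −1.14 ± 0.66 (limma, adjusted p = 0.324) and Id3 −1.04 ± 0.48 (adjusted p = 0.207). Without the array set block, where the set 3 arrays enter against arrays of other sets, they gave −4.00 (adjusted p = 0.0189) and −3.03 (adjusted p = 0.0105). Within set 1, which holds a single wild-type array of 17 dpp, Id1 gave −1.39 and Id3 −1.14. With the spread of all 18 arrays these did not pass (limma, adjusted p = 0.562 and 0.488), whereas with the spread of set 1 alone they did (adjusted p = 0.0108 and 0.0211), in a fit that called 6251 probe sets. The median over all probe sets in this comparison was −0.30 under the block. In mutants the same 5 probe sets gave −0.12 to −0.95, and 0 of them passed, while Id2 1422537_a_at passed there without the array set block (−1.26, adjusted p = 0.0321).

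**Figure D3:**
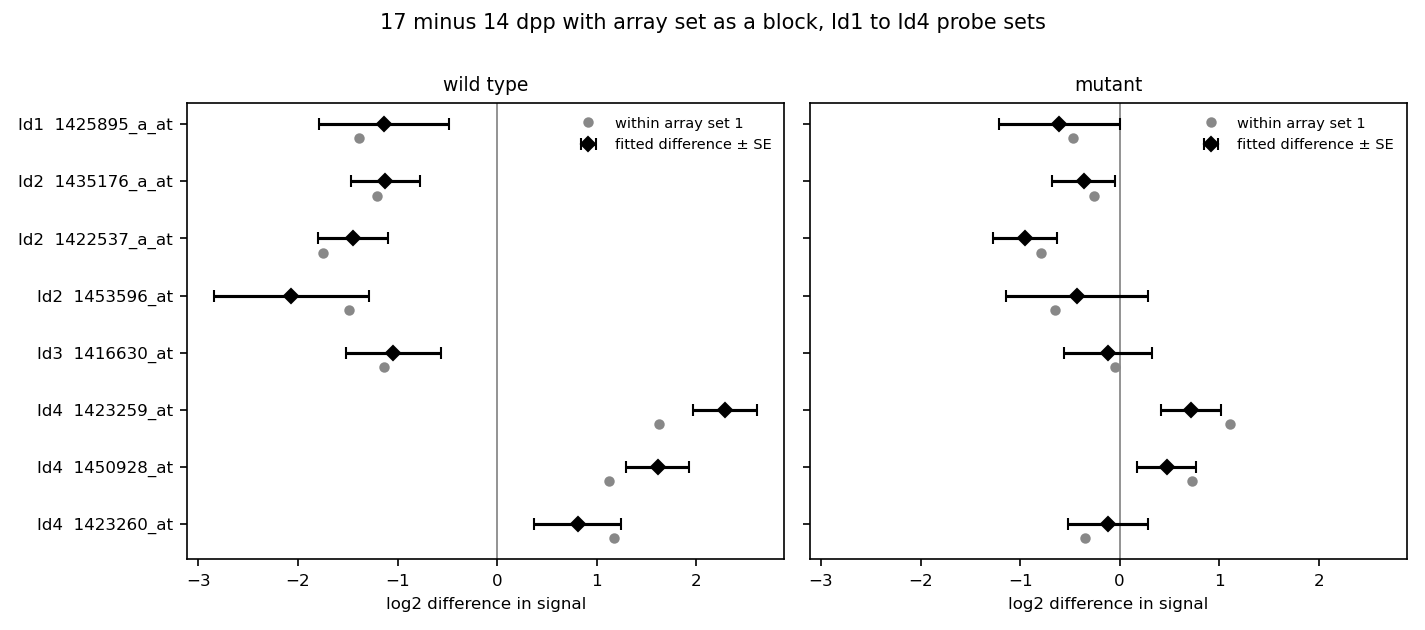
Log2 difference in signal, 17 minus 14 dpp, for the 8 Id probe sets in wild type (left) and mutants (right). Diamonds with bars are fitted with the array set as a block (± SE) and grey circles are the differences within array set 1; in wild type Id4 1423259_at lies at 2.29 and Id2 1422537_a_at at −1.45, and in mutants the 8 probe sets lie between −0.95 and 0.72.

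The proteins with which Id proteins pair, and the pathway that induces them, were followed through lists of 92 genes, of which 87 were on the array and 77 were tested by their brightest probe set. These genes were not chosen for their own differences, although the lists were written with earlier results of these data known. At 14 dpp 0 of the 77 passed the test between genotypes, against 0.196% of all probe sets (68 of 34764, and 30 with the replicate number as a block). Of the 77, 0 had an unadjusted p under 0.05 in limma, against 2% of all probe sets. At 17 dpp 5 of the 77 passed, 2 lower and 3 higher in mutants, against 5.33% of all probe sets, or 3.86% lower and 1.48% higher. Among the 2 lower is Myf6, which passed the filter only through the group in which it was high. Under the array set block 3 were lower and 16 higher, in a fit that called 8.05% of all probe sets lower and 10.8% higher. The median log2 difference of the 77 was 0.45 at 17 dpp, with 58 positive, beside a median of 0.25 over all probe sets.

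None of the E proteins passed at 17 dpp. Tcf3, which encodes E2A, lay at 165 to 1294 in mutants against 101 to 604 in wild type at 17 dpp, a log2 difference of 1.12 ± 0.52 (limma, adjusted p = 0.241). It passed under the array set block (0.69, adjusted p = 0.0322), without the arrays of set 3, which leaves 1 wild-type array of 17 dpp (0.97, adjusted p = 0.0402), and without wild-type 17 dpp replicate 1 (1.51, adjusted p = 0.0499). Tcf12, which encodes HEB, lay at 3366 to 10503 in mutants against 2541 to 6949 in wild type, a log2 difference of 0.53 ± 0.29 (adjusted p = 0.323). It passed under the array set block (0.74, adjusted p = 0.00315) and within set 3 (0.79, adjusted p = 0.0176). Tcf4, which encodes E2-2, differed by 0.09 ± 0.37 (adjusted p = 0.932), and its sign turned when arrays were centred on the common median (−0.06). The other probe sets of Tcf4 were divided in sign at 17 dpp.

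Of the 36 tested E proteins and bHLH factors, 2 passed at 17 dpp, both lower in mutants, against 3.86% of all probe sets called lower. The count includes Myf6, which passed the filter only through the group in which it was high. Under the array set block 3 were lower and 7 higher, against 8.05% and 10.8% of all probe sets. The third lower gene there was Mesp1, a mesoderm regulator (−2.11, adjusted p = 0.0214), and among the higher ones was Neurog3, a bHLH gene of spermatogonia (1.14, adjusted p = 0.0366), both named after their values were seen. Tcfl5, a bHLH factor of spermatocytes, lay at 3943 to 13335 in mutants against 10545 to 35820 in wild type, a log2 difference of −1.61 ± 0.33 (limma, adjusted p = 0.00458). It was not called within set 1 alone (−1.27, adjusted p = 0.0905). In wild type Tcfl5 rose with age by 1.12 ± 0.27 (limma, adjusted p = 0.0150), as Id4 did. The other, Myf6, a muscle regulator, was above its array's 40th percentile on the 5 wild-type arrays of 17 dpp (58.4 to 127) and on 0 of the other 13, with 3.37 to 39.4 in mutants of that age. It entered the test only through the group in which it was high, so its difference is not given. Its call was lost in 7 of the 10 fits that left out an array, with adjusted p up to 0.0808 (limma), and within each array set.

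In the BMP pathway 3 of 41 tested genes passed at 17 dpp, all higher in mutants, against 5.33% of all probe sets called and 1.48% called higher. A positive log2 difference was seen for 32 of the 41, beside a median of 0.25 over all probe sets. Under the array set block 9 passed, all higher, against 10.8% of all probe sets called higher in that fit. Of 10 genes of the ligand list 0 passed, and 2 had an unadjusted p under 0.05 in limma, against 19.4% of all probe sets. Of that list Bmp1, a secreted protease and no ligand itself (1.07, adjusted p = 0.0434), and Bmp6 (1.44, adjusted p = 0.0176) passed under the block, and are named after their values were seen. Of 10 receptors and co-receptors 2 passed. Bmpr2, the type II BMP receptor, lay at 3130.2 to 4564 in mutants against 1928 to 2977 in wild type, a log2 difference of 0.73 ± 0.17 (limma, adjusted p = 0.0154), and of its other probe sets 1 had the same sign, at 0.60 (adjusted p = 0.206), and 1 the opposite, at −0.37 (adjusted p = 0.715). Rgma, a BMP co-receptor, lay at 149.7 to 264 in mutants against 84.8 to 125 in wild type, a log2 difference of 0.98 ± 0.26 (adjusted p = 0.0329).

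Of 5 SMAD transducers 1 passed, Smad4, the SMAD shared by BMP and TGF-β signalling, with a log2 difference of 0.58 ± 0.17 (limma, adjusted p = 0.0479) and 4444 to 5347 in mutants against 2518 to 4475 in wild type. Of 16 inhibitors and regulators 0 passed, and 2 had an unadjusted p under 0.05, against 19.4% of all probe sets. Under the block the BMP and activin antagonist genes Fst (0.96, adjusted p = 0.00931) and Chrdl1 (0.59, adjusted p = 0.0317) passed, also named after their values were seen. The 3 BMP calls depended on the setting. Under the array set block, which called 10.8% of all probe sets higher, Bmpr2, Rgma and Smad4 had an adjusted p of 0.00195, 0.00469 and 0.00396 (limma). With arrays centred on the common median Bmpr2 gave an adjusted p of 0.215, Rgma of 0.0506 and Smad4 of 0.270, and leaving out wild-type 17 dpp replicate 5 ended all 3 calls (0.0569, 0.0873 and 0.146). In wild type 4 of the 41 genes fell with age and 0 rose (limma with the array set block), against 4.57% and 3.06% of all probe sets. Without the block 12 were called lower and 2 higher, against 16.5% and 4.86%, the higher ones being Smad1 (2.12, adjusted p = 0.0134) and Tob1 (1.33, adjusted p = 0.0353), named after their values were seen. The 4 lower genes under the block were the receptor gene Acvrl1 (−2.07), Rgma (−1.26) and the regulators Chrdl1 (−1.03) and Fstl1 (−1.09), named after their values were seen except for Rgma. Without the block Acvrl1 (−1.54) and Rgma (−1.37) passed as well. Fstl1 did not pass there (−0.51, limma, adjusted p = 0.303), and Chrdl1 had the opposite sign (0.60, adjusted p = 0.444). Under the block Smad1 gave 0.80 (adjusted p = 0.230) and Tob1 −0.04 (adjusted p = 0.916).

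**Figure D4:**
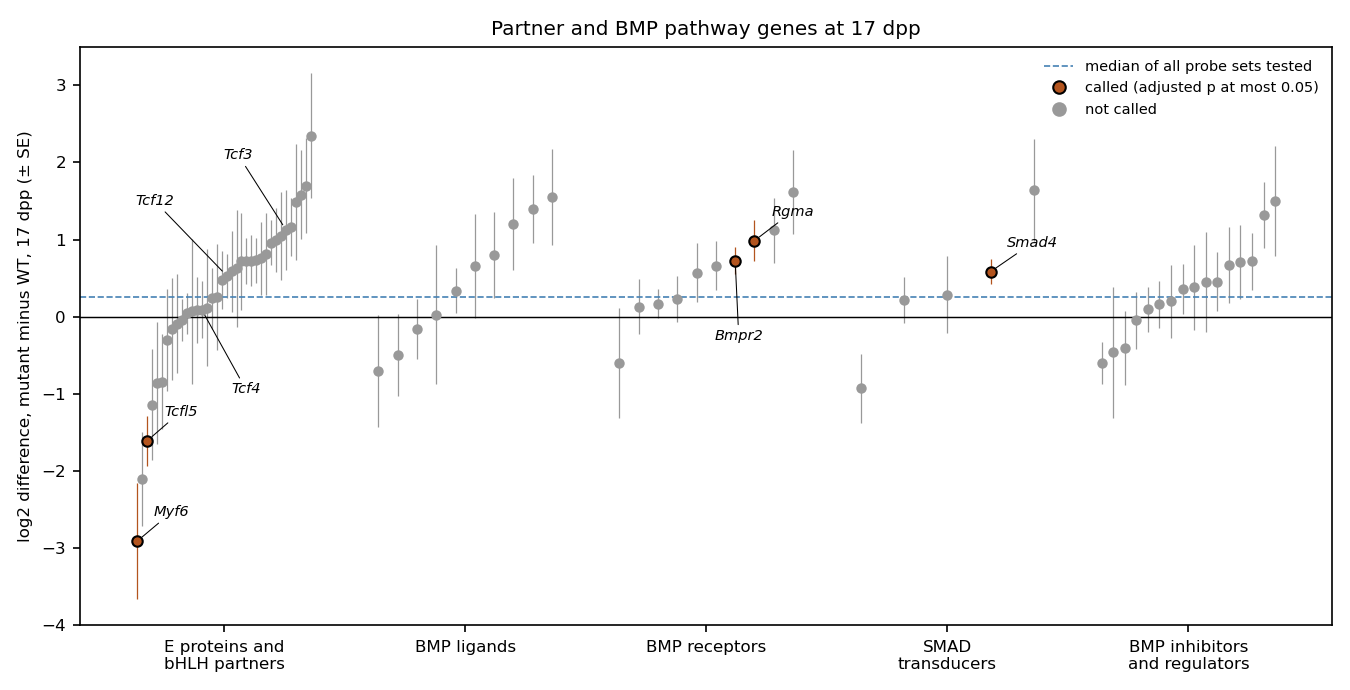
Log2 difference in signal at 17 dpp, mutant minus wild type (± SE), of the 77 tested partner and BMP pathway genes, ordered within each list. Outlined points passed the test; Tcfl5 lies at −1.61, Myf6, which was not above the 40th percentile in mutants, is the lowest point, Bmpr2, Rgma and Smad4 lie at 0.73, 0.98 and 0.58, and the dashed line is the median of all probe sets, 0.25.

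The genes whose log2 profile over the 18 arrays was most like that of Id4 1423259_at were ranked among 15306 genes by the root mean square (RMS) difference, after each profile was centred within the array sets. The median RMS over these genes was 1.31. The 8 nearest were Ccdc136 at 0.30, Cox7b2 at 0.32, Cep83os at 0.36, Ccdc62 at 0.36, 1110032A03Rik at 0.37, Lyar at 0.37, Tspyl4 at 0.37 and Spa17 at 0.37. Cox7b2 encodes a germ-cell form of a cytochrome c oxidase subunit and Spa17 a sperm surface protein. Each of the 8 had a lower geometric mean in mutants at both ages, as Id4 had, with log2 differences at 17 dpp from −2.10 to −2.79. Id1, Id2 and Id3 were farther from Id4 than the median gene, at 1.50, 1.55 and 1.61. The choice of the family set Id4 against these 3 genes on the same arrays, so their distance is a description and no result of its own.

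The list of nearest genes depended on the centring. With profiles centred on the mean of all arrays the 8 nearest were Lyar, Dis3l, Nmnat3, Tspyl4, Psmc3ip, Rnls, Cfap97 and Limd2, of which Lyar and Tspyl4 stand in both lists. Under that centring Ccdc136, the nearest within sets, ranked 7622 at an RMS of 1.73, Cep83os ranked 799 and Cox7b2 ranked 10. Lyar was the nearest there, at 0.37, and its signal lay at 2374 to 3135 in mutants against 11740 to 35232 in wild type at 17 dpp. Tspyl4 lay at 211 to 479 in mutants against 1332 to 2904 in wild type at that age. The profiles share arrays and the genotype contrast by which Id4 was picked, so the likeness is a description.

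**Figure D5:**
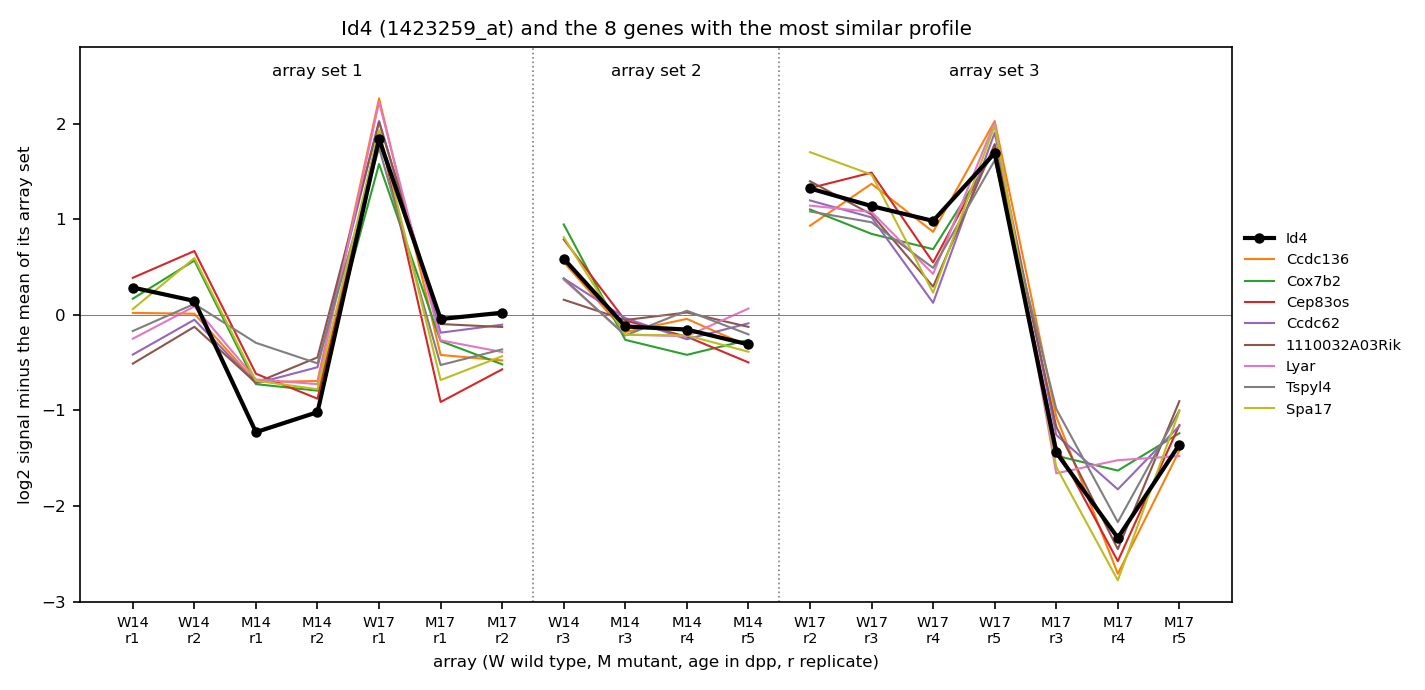
Log2 signal on each array minus the mean of its array set, for Id4 1423259_at (black, with points) and the 8 genes with the smallest RMS difference from it. The arrays stand on the horizontal axis by set, genotype and age; within each set the wild-type arrays of 17 dpp, or of 14 dpp in set 2, stand above the mutant arrays of the same age.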

How the data were processed

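Biotinylated cRNA from total RNA of whole testes was hybridised to Affymetrix mouse expression arrays and processed by the authors with Affymetrix GCOS, per the labels and the series' design text. The submitters' processing notes name MAS5. Each deposited value is the linear MAS5 signal intensity of 1 probe set on 1 array. The mixed scaling of the array sets was kept as deposited.

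The 18 arrays were modelled together on the log2 scale (limma 3.58.1, R 4.3.3), with an intensity trend, two-sided tests and Benjamini-Hochberg adjustment over 34764 probe sets at 0.05. The 64 control probe sets were left out. Genotypes were compared with 1 mean per group (14 residual degrees of freedom) and ages with the array set as a fixed block (12), the sets being bounded at β-actin ratios of 1.9 and 10. Within-set values share the spread of all arrays, so that a lone array is assumed to vary like the others, except where a fit on set 1 alone is named, which takes its spread from the 7 arrays of that set. Genes of lists were represented by their brightest tested probe set, and the genes named were the members, the E proteins, the listed partner and BMP genes called between genotypes, and the 8 genes most like Id4. The members and lists were chosen with earlier results of these data known. Replicate numbers at 14 dpp met the criterion for pairing (correlation of deviations 0.323, 0.382 and 0.417), and each pair also lay in 1 array set. At 17 dpp they did not (−0.225 to 0.790). The fits were checked on simulated data with independent noise and no array set effect, so that check does not cover differences between the sets. Alternatives covered the block, the scaling, the filter, an offset of 16, single array sets, the two-way model of the methods and leaving out each array.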

Additional observations from a re-analysis of the deposited data

Results flagged for a closer look

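In 24 groups of 5 arrays, 2 held a signal that stood apart from the rest by Dixon's criterion, which chance meets in about 1 group in 20. For Id4 1423259_at in mutants at 17 dpp, replicate 4 gave 939.32, and its gap to the next array was 0.81 of the group's range on the log2 scale. For Id2 1435176_a_at in wild type at 17 dpp, replicate 1 gave 826.35, with a gap of 0.73 of the range, and this was the group's array of set 1.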

How the results depend on the processing

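The differences of the 8 Id probe sets were recomputed under the alternatives, which gave 544 values, and 513 of them kept the direction and the side of the threshold or stayed within the spread of the reported value. Genotype differences that changed sign within that spread count among the 513. They were Id1 at 14 dpp, positive in 5 of 17 settings, and Id2 1435176_a_at, negative in 1 of 17 at 14 dpp and 2 of 19 at 17 dpp. The spread includes differences between array sets, so staying within it was a weak criterion. The age differences that changed sign were small or rested on the array set block. Without the block Id2 1435176_a_at gave 1.07 with age in mutants and 0.92 in wild type. In mutants with age, quantile normalization gave 0.022 for Id2 1453596_at and 0.051 for Id4 1423260_at, and the common median gave 0.12 for Id3 and 0.13 for Id4 1423260_at. The replicate block gave 0.0061 for Id3 there. Leaving out 1 array gave −0.31 to 0.042 for Id3, turning without mutant 17 dpp replicate 1, and −0.36 to 0.30 for Id4 1423260_at, turning without that replicate or mutant 14 dpp replicate 2. For Tcf4 at 17 dpp the common median gave −0.056 and leaving out 1 array −0.17 to 0.38. The cause of these changes was not tested.

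For Id4 1423259_at the age difference in mutants was 0.98 with quantile normalization and 1.11 with set 1 alone, and the genotype difference at 17 dpp was −1.85 within set 1 or without the arrays of set 3. The count of called probe sets at 14 dpp (68) was 128 with the array set block, 233 without the arrays of set 3, 31 within set 2 and 866 for the genotype effect of the two-way model of the methods. At 17 dpp (1854) it was 6550 with the array set block, 990 within set 1 and 4006 within set 3. With age it was 7438 without the block and 6251 with set 1 alone in wild type (2654), and 1343 with set 1 alone in mutants (478). With the replicate block it was 30 at 14 dpp and 3620 at 17 dpp, where the numbers did not pair.

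Leaving out 1 array gave 24 to 65 calls at 14 dpp (24 without wild-type replicate 2) and 1206 to 3947 at 17 dpp (1206 without wild-type replicate 5, 3947 without replicate 1). In wild type with age it gave 1013 to 3721 calls, with 1013 and 1375 without 14 dpp replicates 1 and 2 and 1024 without 17 dpp replicate 1. In mutants with age it gave 177 to 608, with 178 and 177 without 14 dpp replicates 1 and 2, and 255 and 315 without 17 dpp replicates 1 and 2. Centring on the common median moved the median of all probe sets by −0.12, −0.14, 0.39 and 0.24 in the comparisons of genotype at 14 and 17 dpp and of age in wild type and mutants. The low signals of Id1, Id3 and Id2 1453596_at on the arrays of set 3 limit their precision.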
